A study of Mus musculus with 10 samples.

Results

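The genes described here are 40 interferon-stimulated and innate sensing genes, chosen by symbol: the ligand gene Ifnb1 and both receptor genes, signalling genes, RNA and DNA sensors, the OAS family and other RNA-acting proteins, the IFIT, MX and viperin effectors, membrane and other effectors, and guanylate-binding proteins (GBPs). All regions that the deposited tables assigned to these symbols were kept. Of 40 genes, 36 had a region in the JUN table (88 of 72990 regions), 29 in the NFATC2 table (62 of 68767), 26 in the SMAD3 table (51 of 58633) and 11 in the table of histone H3 lactylated at lysine 9 (H3K9lc; 31 of 74751). Regions were listed for 16970 genes in all with JUN, 17378 with NFATC2, 16630 with SMAD3 and 12994 with H3K9lc. Shares of all mouse genes were not computed. Myd88, the adaptor of most Toll-like receptors, and Isg15, a ubiquitin-like protein, had no region with any of the 4 antibodies.

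Type I interferon is a cytokine that cells release on meeting foreign or misplaced nucleic acid. It binds the receptor chains IFNAR1 and IFNAR2, and a complex that contains STAT2 then switches on interferon-stimulated genes through a short DNA element, the interferon-stimulated response element (ISRE). Their products sense RNA, degrade it, halt translation or trap virus particles, and several of the sensors are interferon-stimulated themselves. Fibroblasts, heart fibroblasts included, respond to interferon.

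The data were CUT&Tag libraries, in which a transposase is brought by an antibody to its target in nuclei and cuts sequencing adapters into the DNA there. Mouse primary cardiac fibroblasts were treated with TGF-β, a cytokine that activates fibroblasts (TGF), or received an siRNA against the glycolytic enzyme HK1 and then TGF-β (siHK1). A control library (NC) was read as H3K9lc because its label names the H3K9lc table. A library labelled TGF with no antibody was not analysed here. The comparisons ask whether the mark and the binding of the transcription factors JUN, SMAD3 and NFATC2 differed at these genes with the HK1 siRNA. They also ask whether TGF-β shifted the mark. No control siRNA was named for the TGF libraries, so siRNA transfection and HK1 depletion cannot be told apart here. Each condition had 1 library per antibody, so no spread between samples could be estimated and nothing below was tested. Differences are between libraries, not conditions. Intervals are exact 95% intervals that cover counting error only. Neither RNA nor protein was measured in these libraries, so the knockdown could not be checked here.

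Reads over listed regions differed between the libraries of a pair. They were 1.76 times as many in TGF as in siHK1 for H3K9lc, 1.86 times for JUN, 1.41 times for SMAD3 and 1.62 times for NFATC2. The median region held 32 JUN reads in TGF and 17 in siHK1, against 4 and 3 SMAD3 reads and 3 and 2 NFATC2 reads. Read counts are given below as deposited, TGF before siHK1. Ratios are log2 of siHK1 over TGF after each pair was scaled to equal totals with a pseudocount of 0.5, so 0 means an equal share of reads. That scaling removes any change common to all regions, and total sequenced reads are not used here, so sequencing depth and a general change in the mark or binding cannot be told apart. Genes with at least 10 scaled reads over both libraries were compared, and at least 2-fold counted as lower or higher. JUN regions lay within 1 kb of a start site for 6 of 9 fibroblast and 4 of 5 endothelial markers. They did so for 2 of 6 cardiomyocyte, 2 of 6 immune and 1 of 4 smooth muscle and pericyte markers. The endothelial share was the highest, so these counts could not check the labelled cell type. Binding at a promoter does not measure expression.

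The sequences that carry the results are shown first, on GRCm38. The promoter stretches were read from RefSeq windows of 300 bases that run from 250 bases before a start site. Windows were matched for 31 of 40 genes. An ISRE core (GAAA, any pair of bases, GAAA, on either strand) was found in 17 of the 31 (54.8%), against 3.99% of 27025 genes. The GAS element, TTCNNNGAA, which binds STAT dimers, was found in 12 (38.7% against 9.55%). The AP-1 site bound by JUN dimers, TGAGTCA or its complement TGACTCA, was found in 5 (16.1% against 5.95%). These shares describe the reference sequence and no library. Promoters of 4 genes are shown, in the direction of transcription, with ISRE cores in capitals and, in Gbp2 and Rsad2, the AP-1 site also in capitals. Overlapping ISRE matches merge into a single run in Isg15.
Ifit3 chr19:34583335-34583454 (+): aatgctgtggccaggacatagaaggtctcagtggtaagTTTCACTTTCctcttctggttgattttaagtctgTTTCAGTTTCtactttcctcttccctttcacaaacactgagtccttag
Isg15 chr4:156200826-156200945 (-): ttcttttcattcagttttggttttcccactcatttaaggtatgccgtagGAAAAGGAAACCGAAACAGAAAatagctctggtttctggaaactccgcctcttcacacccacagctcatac
Gbp2 chr3:142620512-142620661 (+): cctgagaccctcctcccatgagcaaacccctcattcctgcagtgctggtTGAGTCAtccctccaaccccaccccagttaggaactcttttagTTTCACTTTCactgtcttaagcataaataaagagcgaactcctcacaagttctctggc
Rsad2 chr12:26456477-26456626 (-): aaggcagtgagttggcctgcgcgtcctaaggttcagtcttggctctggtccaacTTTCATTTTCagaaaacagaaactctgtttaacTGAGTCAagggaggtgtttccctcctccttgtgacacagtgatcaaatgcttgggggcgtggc

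Isg15 held 3 overlapping ISRE matches, at -78, -72 and -66 from its start site, and had no listed region with any antibody. The Ifit3 window, with matches at -156 and -122, overlapped a JUN region of 43 and 31 reads. The Gbp2 window, with an AP-1 site at -102 and an ISRE core at -59, overlapped 32 and 16 JUN reads, and the Rsad2 window, with an ISRE core at -120 and an AP-1 site at -87, overlapped 33 and 23. In all, a JUN region overlapped the window of 15 of 31 genes (48.4%, against 30.2% of all genes), and of 8 of the 17 members with an ISRE core (47.1%, against 22.9% of all 1079 genes with that core). The listed genes with an ISRE core thus overlapped JUN regions at about the share of all 31. The SMAD element CAGAC occurred in 38.7% of the windows (53.2% of all genes), its longer form GTCTAGAC in 0 (0.248%), and the NFAT core GGAAA, which can overlap an ISRE core, in 83.9% (64.4%).

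**Figure D1:**
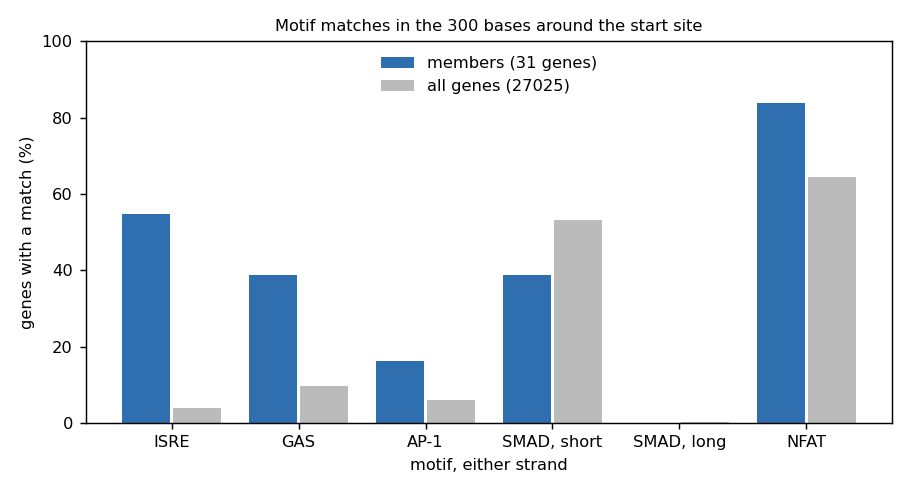
Bars give the percent of genes with at least 1 match, on either strand, in the 300 bases around the RefSeq start site, for the 31 member genes with a window (blue) and all 27025 genes (grey). The ISRE core was found in 54.8% of the members and 3.99% of all genes.

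Further sequences come from listed regions. The first pair are the most-read JUN regions beyond 3 kb from Isg20, the third is the JUN region of Oasl1, and the last, with no capitals, is the most-read SMAD3 region of these genes, just upstream of Oasl1. AP-1 sites are in capitals, and the plus strand is printed.
Isg20 distal 1 chr7:78971552-78971671: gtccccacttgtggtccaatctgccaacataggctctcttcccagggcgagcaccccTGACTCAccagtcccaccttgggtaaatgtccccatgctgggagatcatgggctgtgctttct
Isg20 distal 2 chr7:78964139-78964258: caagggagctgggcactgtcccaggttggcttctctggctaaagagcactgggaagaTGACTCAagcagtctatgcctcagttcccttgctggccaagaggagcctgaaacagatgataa
Oasl1 JUN chr5:114926345-114926464: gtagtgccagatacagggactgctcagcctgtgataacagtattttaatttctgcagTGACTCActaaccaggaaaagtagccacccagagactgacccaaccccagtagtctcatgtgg
Oasl1 upstream chr5:114922448-114922686: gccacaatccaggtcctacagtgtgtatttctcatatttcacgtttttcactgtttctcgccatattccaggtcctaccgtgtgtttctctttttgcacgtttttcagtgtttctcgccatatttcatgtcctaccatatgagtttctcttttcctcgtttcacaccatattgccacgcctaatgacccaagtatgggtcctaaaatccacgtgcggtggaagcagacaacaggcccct

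The Oasl1 upstream stretch was soft-masked as repeat over 52.3% of its length. Of its 216 overlapping 24-base words, 32 (14.8%) occurred elsewhere in the assembled chromosomes, the commonest 75 times in all. None of the 97 words in each of the other 3 stretches did. Its reads are included in the Oasl1 values, counts, medians and summed reads below. For each antibody that listed it, the Oasl1 values, the medians and the counts that changed are given without it. Summed ratios without it were not computed. Sums over regions beyond 3 kb of a start, which leave it out, are given in their place.

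The antibodies reached these genes in different places. Regions within 3 kb of a start site made up 48.9% of the members' JUN regions (43 of 88), against 25.6% of all JUN regions. The corresponding shares were 45.1% and 18.9% for SMAD3, 29% and 17% for NFATC2, and 19.4% and 6.78% for H3K9lc. JUN had a region within 1 kb of a start site at 26 members, SMAD3 at 12, NFATC2 at 9 and H3K9lc at Mx1 and Oasl1 only, as the tables annotate distance. By regions, 36.4% of the members' JUN regions lay within 1 kb, against 18.3% of all JUN regions, and the shares were 25.5% and 11.5% for SMAD3, 16.1% and 9.60% for NFATC2 and 9.68% and 3.41% for H3K9lc. Of the 40, 8 genes had regions with all 4 antibodies: Ifnar2, Zbp1, Oas3, Oasl1, Adar, Isg20, Mx1 and Ifi44. How many of all genes had regions with all 4 was not counted. Start sites were also searched by coordinates in GENCODE vM21. The Mx1 region of H3K9lc then lay within 1 kb of no start, which left Oasl1 alone for that mark. A JUN region of 94 and 62 reads lay within 1 kb of the Myd88 start, as did SMAD3 (8 and 15 reads) and NFATC2 (12 and 5 reads) regions. All were assigned to its neighbour Acaa1a.

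**Figure D2:**
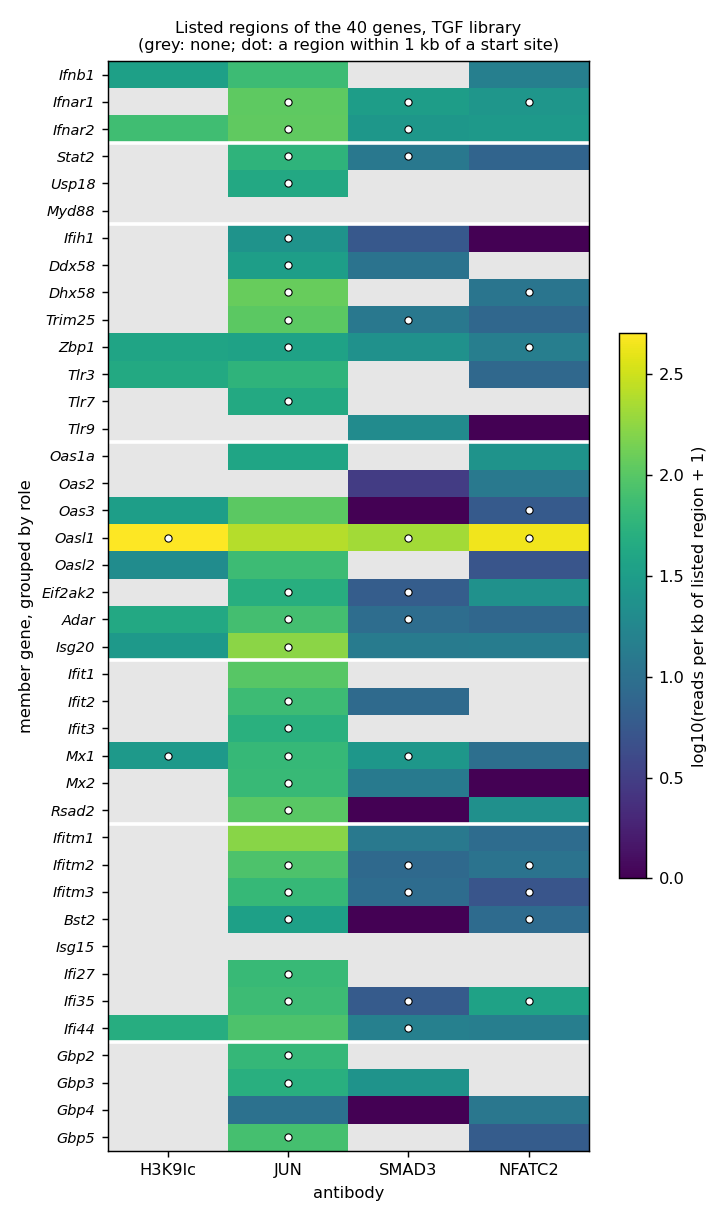
Rows are the 40 genes grouped by role and columns the 4 antibodies; colour gives log10(reads per kb of listed region + 1) in the TGF library, grey cells have no listed region, and dots mark a region within 1 kb of a start site. The JUN column is filled for 36 genes and the H3K9lc column for 11, and Oasl1 is brightest for H3K9lc, SMAD3 and NFATC2.

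JUN gave by far the most reads at these genes. All 36 members with a region passed the read filter. Of these, 2 were at least 2-fold lower in siHK1 (3.63% of all genes tested were) and 2 at least 2-fold higher (2.59%). Their median ratio was 0.12, against -0.015 over all genes, with 16 members below and 20 above 0. The summed reads of all members, 4443 and 2384, gave a ratio of -0.006 (-0.078 to 0.066). Of 48 other interferon pathway genes, 41 passed, 0 were 2-fold lower and 3 higher, with a median of 0.032. By counting error, 3 members had intervals wholly below 0 (11.9% of all genes) and 6 wholly above (10.2%). Summed over regions within 3 kb of a start only, 28 members passed, of which 2 were at least 2-fold lower (5.78% of all genes) and 1 higher (3.89%).

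**Figure D3:**
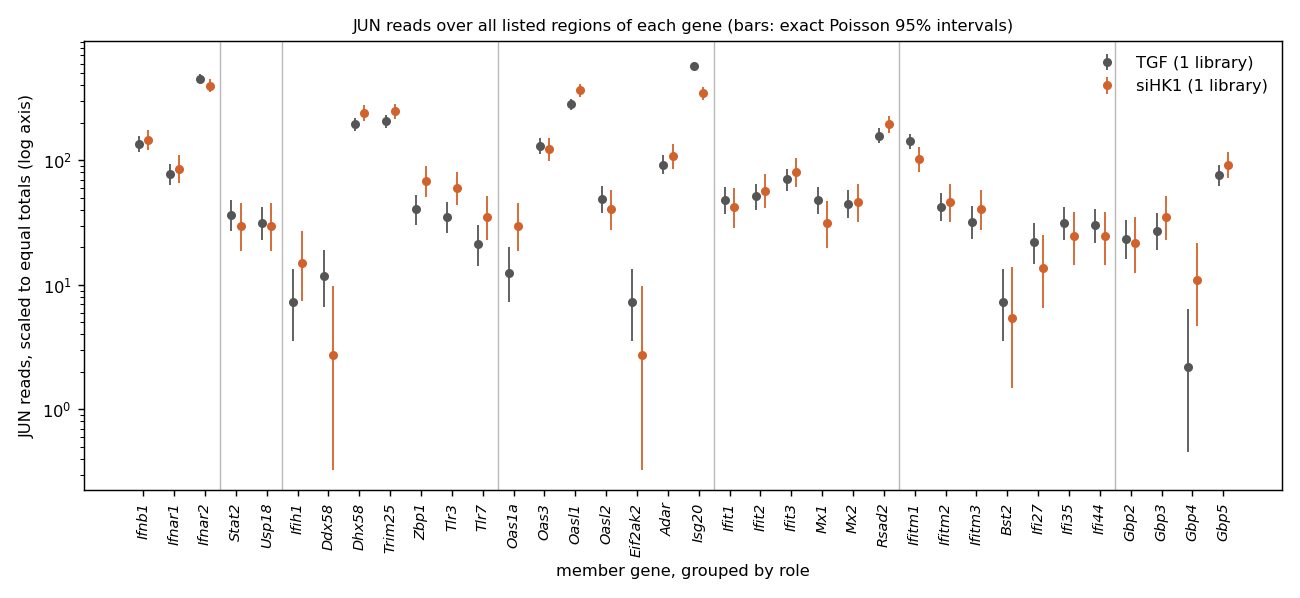
Points give JUN reads over all listed regions of each member, scaled to equal totals (log axis), in the TGF (grey) and siHK1 (orange) library, 1 library each, with exact Poisson 95% intervals. Most pairs overlap; Isg20 is lower in siHK1, 578 against 345 scaled reads.

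The ligand and receptor genes carried JUN reads in like shares in both libraries. Ifnb1, the interferon-β gene, had 6 regions with 185 and 108 reads (ratio 0.12), none of them within 3 kb of its start. The most-read lay 6160 bp away at chr4:88515599-88516614 with 95 and 70 reads, and it held an AP-1 site in its central 200 bp. Ifnar1 had 105 and 63 reads (0.15), of which 52 and 42 fell at its promoter. Ifnar2 had the most regions, 7, with 617 and 293 reads (-0.18, interval -0.39 to 0.021). Its promoter held only 20 and 6 of them, and the most-read region lay 19360 bp upstream at chr16:91352304-91353423 with 292 and 137 reads. Stat2, the interferon-specific STAT, had 50 and 22 reads (-0.29), and Usp18, which silences the receptor, 43 and 22 (-0.073).

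Among the sensors, 6 of 7 with a JUN region had ratios above 0, with a median of 0.72, and 3 of these 6 had intervals that spanned 0. Over all genes, 8019 of 16617 were above 0. Dhx58 (LGP2) had 265 and 177 reads (0.31, 0.027 to 0.59), and 164 and 104 of these lay within 1 kb of its start, the most of any sensor promoter. Zbp1, a sensor of Z-form nucleic acid, had 55 and 50 (0.75, 0.17 to 1.33). Tlr3, the endosomal receptor for double-stranded RNA, had 48 and 44 (0.76, 0.14 to 1.39). These 3 were among the 6 genes with intervals wholly above 0. Tlr7, a receptor for single-stranded RNA, had 29 and 26 reads at its promoter (0.72, -0.087 to 1.55), Ifih1 (MDA5) 10 and 11 (0.98, -0.35 to 2.42) and Trim25, the ubiquitin ligase that acts on RIG-I, 282 and 182 (0.26, -0.017 to 0.53). The most-read Trim25 region was 24837 bp from its start at chr11:89024213-89024701, with 173 and 97 reads. Ddx58 (RIG-I) went the other way, with 16 reads in TGF and 2 in siHK1 (-1.92, -5.27 to -0.019), 11 and 2 of them at its start. Tlr9 had no JUN region.

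Of the OAS family and other RNA-acting proteins, Isg20 stood out. This RNA exonuclease had the most JUN reads of the 40 genes, 788 in TGF and 253 in siHK1, a ratio of -0.75 (-0.96 to -0.54). The region over its start, chr7:78913624-78915166, held 317 and 132 reads (-0.37, -0.68 to -0.074). The other 5 regions lay 24824 to 59064 bp downstream. They held 471 and 121 reads, a ratio of -1.07 (-1.37 to -0.78). Summed in this way, 4.49% of 12169 genes were at least 2-fold lower and 3.18% higher. By region the distal counts were 12 and 4, 12 and 2, 96 and 18, 299 and 86, and 52 and 11, in order of distance. All 5 were below 0, from -0.65 to -1.53, and each had a peak called in TGF and none in siHK1. Over all genes, 54.7% of 54301 JUN regions beyond 3 kb did not have more scaled reads in siHK1, and 38.1% had a peak called in TGF only. Of the 5, 3 were at least 2-fold lower, against 10.9% of the 51399 distal regions with enough reads (6.33% were higher). RefSeq places Isg20 at chr7:78913396-78920396 and the long noncoding RNA Gm31213 at chr7:78938946-78954479. The nearest 2 of the 5 regions lie in Gm31213, and the other 3 lie past its end and before the next gene, Gm26633, which starts at 79018053. The assignment to Isg20 is by nearest start site, and no contact between these regions and Isg20 was measured. The AP-1 sites printed above lie in the 299 and 96 read regions.

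**Figure D4:**
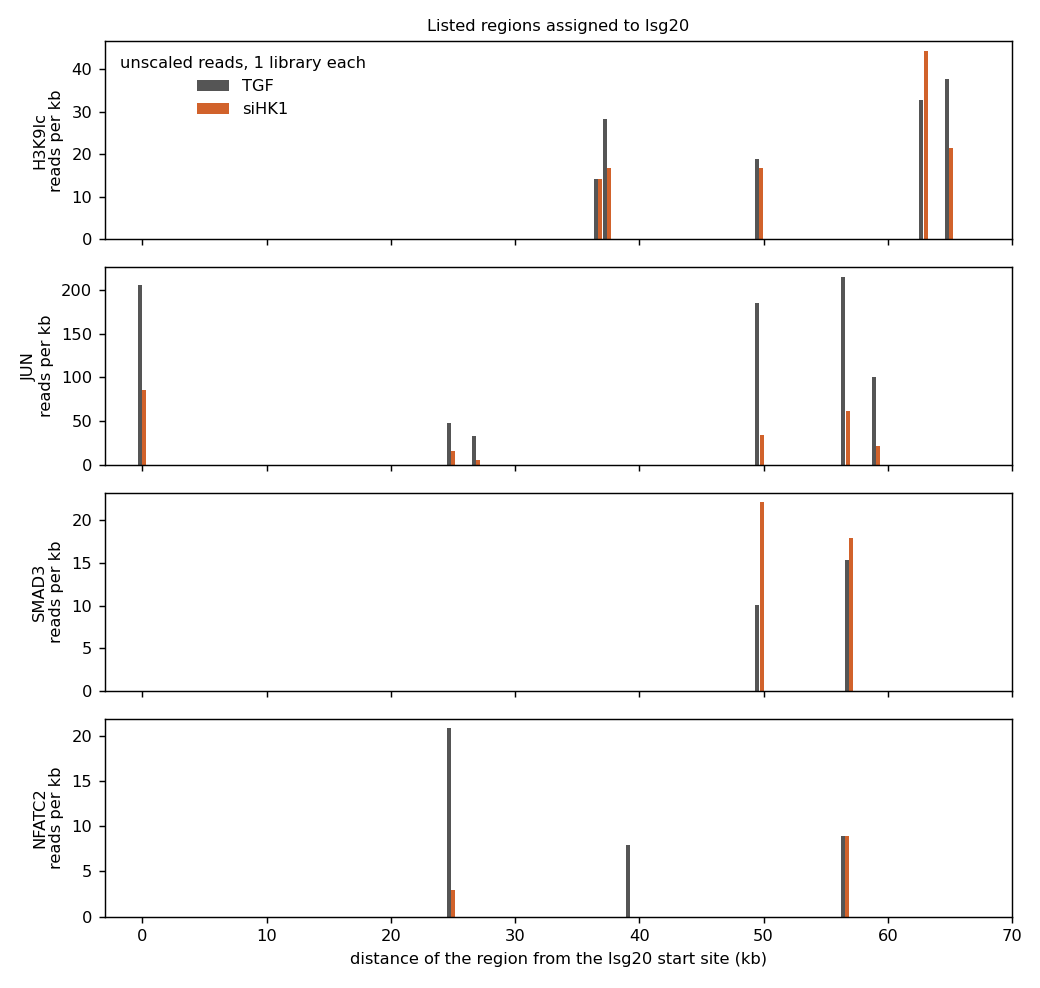
Bars give unscaled reads per kb of each region assigned to Isg20 by its distance in kb from the start site, in TGF (grey) and siHK1 (orange), 1 library each, with a panel per antibody and its own axis. JUN bars are lower in siHK1 at all 6 regions; the SMAD3 bars at 49.7 and 56.9 kb are higher, on counts of 5 to 11 reads.

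The other genes of this role differed less or on few reads. Oasl1, an OAS-like protein, had a single JUN region, 2192 bp downstream of its start at chr5:114925627-114927164, with 384 and 269 reads (0.38, 0.15 to 0.61). Oas3 had 178 and 90 reads (-0.091), Adar, the RNA-editing deaminase, 126 and 79 (0.22) and Oasl2 67 and 30 (-0.26). Oas1a was past 2-fold with 17 and 22 reads (1.23, 0.28 to 2.27). Eif2ak2, the kinase PKR that halts translation, was past 2-fold the other way on 10 and 2 reads (-1.28, -4.66 to 0.80), all in a region across its start whose centre held an ISRE core. Oas2 had no JUN region.

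All 6 IFIT, MX and viperin genes had JUN regions, with ratios from -0.60 to 0.30. Rsad2 (viperin) had 215 and 143 reads (0.30, -0.012 to 0.62), with 150 and 101 in a region 14724 bp from its start. Ifit3 had 96 and 59 reads (0.19), Ifit2 70 and 42 (0.15), Ifit1 66 and 31 (-0.20), Mx1 65 and 23 (-0.60, -1.36 to 0.10) and Mx2 61 and 34 (0.048). Each interval spanned 0. At the start sites Ifit2 held 38 and 25 reads, Ifit3 43 and 31, Rsad2 33 and 23, Mx2 61 and 34 and Mx1 15 and 4, whereas Ifit1 had no region within 1 kb.

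Among the membrane and other effectors, Ifitm1, of the family that blocks virus entry, had 193 and 75 JUN reads (-0.47, -0.88 to -0.080) in 3 regions 5250 to 14098 bp from its start. The most-read, chr7:140973290-140973973, held 154 and 62. Its relatives had promoter regions only: Ifitm2 58 and 34 reads (0.12) and Ifitm3 44 and 30 (0.33). Single regions were listed for Ifi27 (30 and 10 reads, -0.67), Ifi35 (43 and 18, -0.36), Ifi44 (41 and 18, -0.29) and Bst2, the virion tether tetherin (10 and 4, -0.40). The GBP genes, whose products coat intracellular pathogens, had 104 and 68 reads at Gbp5 (0.28), 37 and 26 at Gbp3 (0.38) and 32 and 16 at Gbp2 (-0.11), and Gbp4 was past 2-fold on 3 and 8 reads (2.08, 0.25 to 4.86).

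Read by position, more member JUN regions had the larger scaled count in siHK1 near start sites than far from them. Within 3 kb this held for 27 of 43 regions (62.8%, against 47.0% of all such regions). Beyond 3 kb it held for 16 of 45 (35.6%, against 45.3%). Summed reads were 2003 and 1198 near starts (0.15, 0.046 to 0.25) and 2440 and 1186 beyond (-0.15, -0.25 to -0.048). The Isg20 distal regions supplied 471 and 121 of the latter. Without them the distal sum was 1969 and 1065, a ratio of 0.0055 (-0.10 to 0.11), and 16 of 40 regions had the larger scaled count in siHK1. In the central 200 bp, an AP-1 site was found in 16.3% of member JUN regions within 3 kb and 28.9% beyond (14.4% and 27.4% of all JUN regions), and an ISRE core in 9.30% within 3 kb (4 of 43) and 2.22% beyond (1.74% and 2.15% of all). The 4 were at Ifi27, Eif2ak2, Gbp3 and Gbp2.

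SMAD3 reads were sparse. Of 26 members with a region, 11 passed the filter, 1 was at least 2-fold lower in siHK1 and 5 higher. Over all genes 11.5% were lower and 21.2% higher, and among genes summed within 3 kb of a start 41.7% were higher, so gains near starts were common in this pair of libraries. The median of the 11 was 0.98, against 0.21 over all genes. Their summed reads, 405 and 318, gave a ratio of 0.15 (-0.07 to 0.36), and 201 and 84 of them lay in the Oasl1 upstream region. Beyond 3 kb, which leaves that region out, the regions of all members held 176 and 185 reads (0.57, 0.26 to 0.87). Over all genes the ratio beyond 3 kb was -0.091. By interval 2 members were below 0 (10.9%) and 5 above (18.5%). Within 3 kb the relation to all genes turned: the median was 0.66 for 8 members and 0.84 over all genes, with 1 member lower (5.51%) and 3 higher. The 15 that did not pass included 4 sensors. Of 48 other pathway genes, 23 passed, with 3 lower, 6 higher and a median of 0.63.

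The members past 2-fold higher had few reads. Ifi35 and Ifitm2 each had 4 reads in TGF and 13 in siHK1 (2.04, 0.50 to 4.27). Ifitm1 had 3 and 9 (1.89, 0.077 to 4.6), in a region 5426 bp away that overlapped its most-read JUN region. Isg20 had 11 and 18 (1.16, 0.045 to 2.43) and Adar 11 and 17 (1.08, -0.055 to 2.36). Both Isg20 regions overlapped distal JUN regions whose stretches are printed above. The one at chr7:78964006-78964502 held 5 and 11 SMAD3 reads where JUN held 96 and 18. Mx1, a dynamin-like antiviral GTPase, was the member past 2-fold lower, with 16 and 2 reads (-2.28, -5.67 to -0.42), 13 and 2 of them 92 bp from a start site. Stat2 had 9 and 13 reads (0.98), Trim25 21 and 27 (0.84), Ifnar1 20 and 11 (-0.36) and Ifnar2 97 and 96 (0.48, 0.058 to 0.90).

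The Oasl1 upstream region dominated the SMAD3 reads. It held 201 and 84 of the 405 and 318 reads at the 11 members that passed (ratio -0.76, -1.15 to -0.39), while a separate Oasl1 region 6562 bp upstream had 6 and 14. The same start position, chr5:114922448, was listed for H3K9lc with 643 and 437 reads and for NFATC2 with 186 and 74 (-0.63, -1.04 to -0.23). By reads per kb it ranked 84 among all H3K9lc regions, 81 for SMAD3 and 93 for NFATC2. Regions of that density were shared between antibodies: of the 100 densest SMAD3 regions, 97 overlapped an H3K9lc region, 98 a JUN region and 100 an NFATC2 region, against 8.36%, 23.0% and 14.3% of all SMAD3 regions. JUN had no listed region at this place. How much of its reads come from the antibody target was not tested. Without it, Oasl1 had 8 and 15 SMAD3 reads (1.34, 0.072 to 2.85), so its direction turned, and 1 member was at least 2-fold lower and 6 higher (by interval 1 and 6), with a median of 1.08.

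NFATC2 reads were also sparse, with 15 of 29 members passing. Of these, 4 were at least 2-fold lower (8.84% of all genes) and 3 higher (14.9%), and the median was -0.28 against 0.11 over all genes. Their summed reads, 433 and 243, gave a ratio of -0.13 (-0.37 to 0.10), and 186 and 74 of them lay in the Oasl1 upstream region. Lower were Oas1a with 12 reads in TGF and 1 in siHK1 (-2.48, -8.30 to -0.13), Eif2ak2 with 11 and 2 (-1.58, -4.98 to 0.44), Ifnar1 with 13 and 3 (-1.31, -3.87 to 0.45) and Isg20 with 12 and 3 (-1.20, -3.77 to 0.59). Higher were Oas3 with 3 and 12 (2.47, 0.81 to 5.16), Adar with 7 and 10 (1.14, -0.33 to 2.84) and Ifitm2 with 5 and 7 (1.09, -0.69 to 3.18). Of these 7 intervals, those of Oas1a and Oas3 left out 0. By that rule 2 members were lower (Oas1a and Oasl1; 5.88% of all genes) and 1 higher (11.5%). Within 3 kb only 5 members passed, with 0 lower (10.7%) and 1 higher (18.4%). Oasl1 had 190 and 78 reads (-0.58, -0.98 to -0.20), nearly all in the upstream region. Without that region Oasl1 had 4 and 4 reads and did not pass, 1 member was lower by interval, and the median of the other 14 was -0.054. Beyond 3 kb, which leaves that region out, the regions of all members held 215 and 154 reads (0.22, -0.09 to 0.52). Over all genes the ratio beyond 3 kb was -0.0035. With no read filter, 7 of 29 members were lower and 8 higher, and the median was 0.56, against 0.17 over all genes.

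Ifnar2 had most NFATC2 reads after Oasl1, 113 and 84 over 8 regions (0.27, -0.15 to 0.69). The most-read, chr16:91338013-91339395, held 39 and 26 and overlapped SMAD3 and H3K9lc regions. Zbp1 had 20 and 10 reads (-0.29), Oas2 10 and 7 (0.17), Rsad2 10 and 5 (-0.28), Gbp4 10 and 10 (0.67), Ifi35 11 and 4 at its promoter (-0.71) and Trim25 6 and 7 (0.85). Each interval spanned 0. Of the other pathway genes 25 passed, with 1 lower, 6 higher and a median of 0.51.

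**Figure D5:**
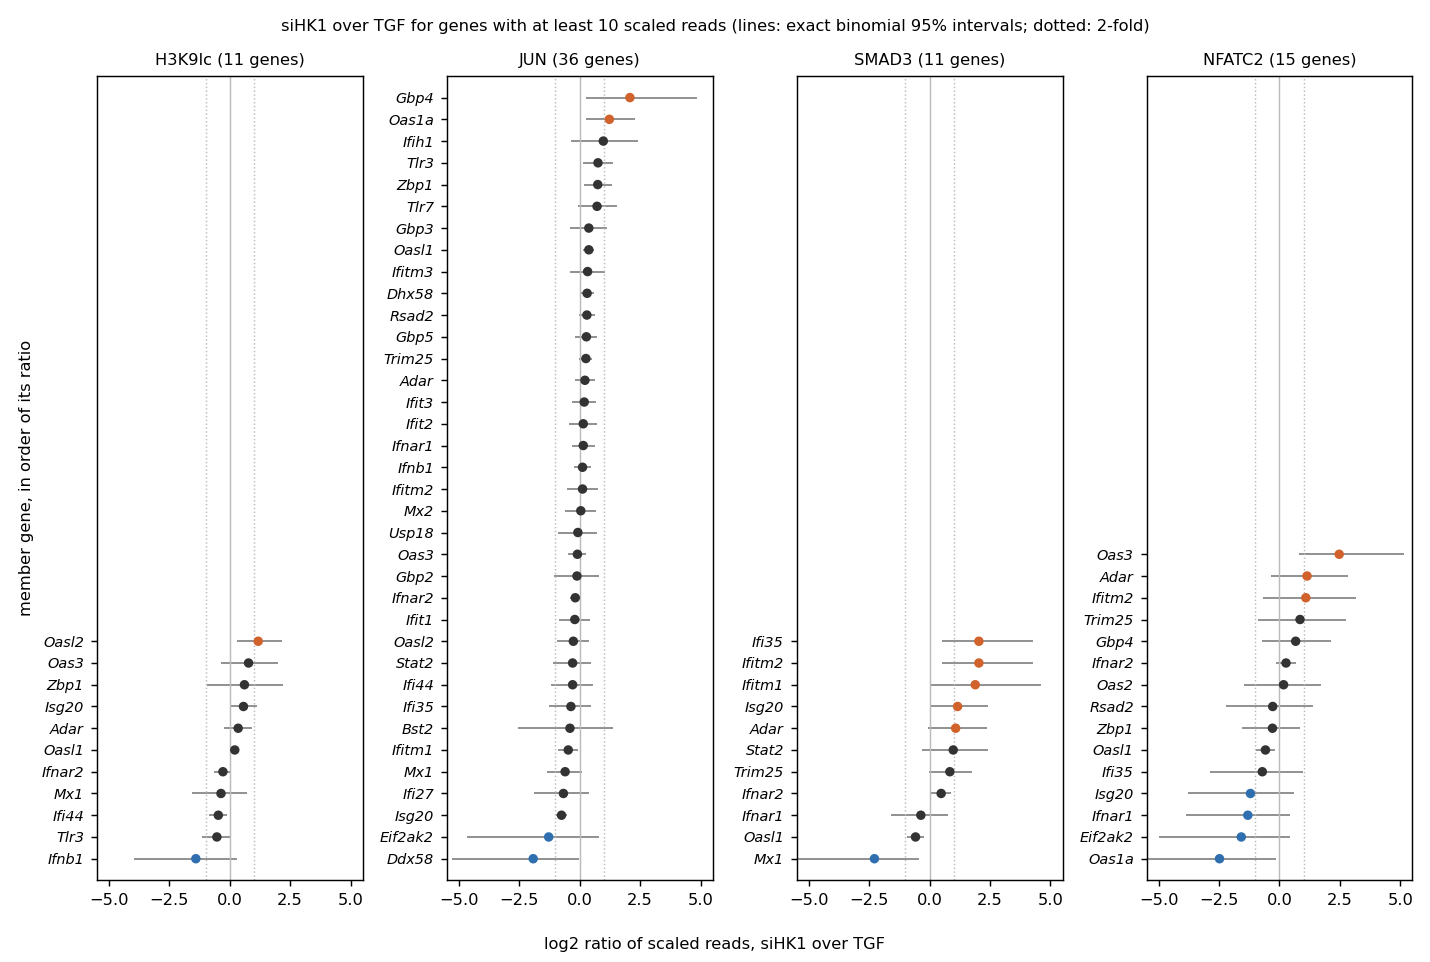
Each panel shows, for an antibody, the members with at least 10 scaled reads in order of their log2 ratio of siHK1 over TGF, with exact binomial 95% intervals (some run past the axis); blue and orange points are at least 2-fold lower and higher. JUN holds 36 genes, mostly within 1 of 0, and the SMAD3 and NFATC2 intervals are wide.

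H3K9 lactylation was listed at 11 of the 40 genes (27.5%) and at 20 of the 48 other pathway genes (41.7%). In all it was listed at 12994 genes, and the share of all mouse genes was not computed. Between genes lay 67.7% of the members' regions (21 of 31), near the 65.3% of all H3K9lc regions. All 11 members with a region passed, 1 was at least 2-fold lower in siHK1 (4.13% of all genes) and 1 higher (3.57%). The median was 0.21 against -0.061 over all genes, and the summed reads, 1408 and 834, gave 0.056 (-0.069 to 0.18). Of these reads, 643 and 437 lay in the Oasl1 upstream region. Beyond 3 kb, which leaves that region out, the members' regions held 641 and 347 reads (-0.074, -0.27 to 0.12). Over all genes the ratio beyond 3 kb was 0.0036. By interval 1 member was lower (7.68%) and 3 were higher (4.92%), and within 3 kb of a start only 3 members passed, with 0 lower (11.8%) and 0 higher (8.12%). Of 48 other pathway genes, 19 passed, with 2 lower, 1 higher and a median of -0.14. Oasl2 was higher with 19 reads in TGF and 25 in siHK1 (1.18, 0.29 to 2.15), in 3 regions none of which lay within 3 kb of its start. Ifnb1 was lower with 15 and 3 reads (-1.40, -3.94 to 0.31), 35490 bp from its start.

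The remaining H3K9lc values lay closer to 0. Ifi44 had 212 and 87 reads over 3 regions (-0.47, -0.85 to -0.11), and Ifnar2 218 and 102 over 6 (-0.28, -0.64 to 0.062). Tlr3 had 84 and 33 (-0.53, -1.16 to 0.061), Adar 66 and 48 (0.35), Oas3 14 and 14 (0.78), Zbp1 9 and 8 (0.61) and Mx1 25 and 11 (-0.36). Isg20 had 66 and 56 reads (0.57, 0.034 to 1.11) in 5 distal regions, of which the region at 49642 bp, with 9 and 8 reads, overlapped the JUN region of 96 and 18. Oasl1 had 680 and 447 (0.21, 0.031 to 0.38), nearly all in the upstream region. Without that region it had 37 and 10 (-1.05, -2.25 to -0.039), 2 members were then at least 2-fold lower and 1 higher (by interval 2 and 2), and the median turned to -0.28. No member approached Irf7, the title gene of the series and itself a regulator of interferon genes. A single region 986 bp from its start held 3301 H3K9lc reads in TGF, 4 in siHK1 and 1 in NC. Its ratio of -8.75 was the lowest of all 11912 genes tested, and the high count was in the TGF library alone. JUN held 16 and 7 reads across the Irf7 start, and SMAD3 8 and 2 reads 341 bp from it. What gave the TGF count was not tested.

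Some member regions were shared between antibodies. Of the 31 member H3K9lc regions, 4 overlapped a JUN region (12.9%, against 5.92% of all H3K9lc regions), 7 a SMAD3 region (22.6% against 6.50%) and 7 an NFATC2 region (22.6% against 6.58%). These were regions of Ifnar2, Isg20 and Oasl1, and Ifnar2 alone supplied 3 of the 4, 5 of the 7 and 6 of the 7. Of the 7 shared with SMAD3, 5 were at least 50% soft-masked as repeat in their central 200 bp, as were 5 of the 7 shared with NFATC2 and 2 of the 4 shared with JUN, all at Ifnar2 and Oasl1. Of all 31 member H3K9lc regions 16 were. The part of repeats in the overlap was not tested. Of the 51 member SMAD3 regions, 18 overlapped a JUN region (35.3% against 23.0%), at Adar, Ifi35, Ifitm1, Ifitm2, Ifnar1, Ifnar2, Isg20, Mx1, Stat2 and Trim25. For NFATC2, 17 of 62 overlapped JUN (27.4% against 16.7%).

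The NC control could be compared for H3K9lc only. Its library held 115572 reads over the regions of that table against 2313288 in TGF, with a median of 1 read a region. Of those regions, 85.9% had a peak called in TGF only. Whether fewer reads sequenced or less mark gave the low total cannot be told apart. This comparison shares the TGF library with the one above. Of 11 members with a region, 5 passed. None was at least 2-fold lower (7.73% of all genes) and 1 was higher (19.2%). That was Adar, with 1 read in NC and 56 in TGF (ratio of TGF over NC 1.39, -1.05 to 6.81). Ifi44 had 5 and 199 reads (0.98, -0.26 to 2.63), Ifnar2 5 and 197 (0.96, -0.27 to 2.62), Tlr3 3 and 84 (0.47) and Oasl1 28 and 678 (0.27, -0.27 to 0.88). Within 3 kb only 2 members passed, with 0 lower (17.3%) and 1 higher (18.6%). The median of the 5 was 0.96, against 0.33 over all genes, and every interval spanned 0 (over all genes 2.58% of intervals lay below and 7.15% above), so no shift was told from counting error at any of the 5 alone. Their summed reads, 42 and 1214, gave a ratio of 0.53 (0.087 to 1.01), against -0.006 over all genes. Of 48 other pathway genes, 15 passed, with 1 lower, 4 higher and a median of 0.29. Isg20 (0 and 36 reads), Ifnb1 (0 and 15) and Oasl2 (0 and 14) had no reads in NC, Mx1 had 1 and 23 and Oas2 1 and 4. Rsad2 had 2 and 0, too few to pass, with an interval wholly below 0 (upper limit -1.91). The Oasl1 upstream region supplied 28 of the 42 NC reads and 643 of the 1214 TGF reads of the 5 genes that passed. Without it Oasl1 had 0 and 35 reads and did not pass, and the median of the other 4 was 0.97. Beyond 3 kb, which leaves that region out, the regions of all members held 16 and 537 reads (0.75, 0.033 to 1.56). Over all genes the ratio beyond 3 kb was -0.0092.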

How the data were processed

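CUT&Tag libraries were made by the study's authors from mouse primary cardiac fibroblasts with a commercial kit. The submitters' processing notes name BWA 0.7.12 and build mm10, whereas the study's methods name Bowtie2, MACS2 and GRCm39. Of the 79 member transcripts in the tables, 78 were found in GENCODE vM21 (GRCm38), all at the same coordinates, and coordinates are given on GRCm38, counted from 1. The deposited tables hold raw read counts per region and library, peak marks, nearest-gene symbols, and the authors' own normalized values, ratios and p-values, which were not used. A table with 2 columns of a sample outside the series was left out, so 9 of 10 libraries were used.

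The deposited counts were summed per gene, scaled to equal totals over listed regions (geometric mean) and compared as log2 ratios with a pseudocount of 0.5, a filter of 10 scaled reads and a 2-fold threshold (Python 3.11.15, numpy 2.4.6, pandas 2.3.3, scipy 1.17.1). Intervals are exact (Clopper-Pearson) binomial 95% intervals of the ratio. The code was tested on simulated data with 200 changed genes. PCR copies are not independent molecules, so intervals cover counting error only. Regions were listed where a peak was called in either library in nearly all cases. Sequences and motifs were read with pysam 0.24.0 from RefSeq GRCm38.p6. In each table the 8 members with most scaled reads, members past 2-fold and members with at least 10 scaled reads within 1 kb of a start site are named. The members and lists were chosen with earlier results of these data known.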

Additional observations from a re-analysis of the deposited data

Results flagged for a closer look

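For 4 genes the interval of the siHK1 over TGF ratio lay wholly below 0 with 1 antibody and wholly above 0 with another. How many of all genes meet this rule was not counted. Over all genes tested, intervals lay wholly below and above 0 for 11.9% and 10.2% with JUN and 10.9% and 18.5% with SMAD3. The shares were 5.88% and 11.5% with NFATC2 and 7.68% and 4.92% with H3K9lc. The differences between antibodies were not tested, and each value rests on 1 library per condition. Isg20 had ratios of -0.75 for JUN, 0.57 for H3K9lc and 1.16 for SMAD3. The JUN value includes the region over its start, where H3K9lc and SMAD3 had none. Oasl1 had 0.21 for H3K9lc and 0.38 for JUN but -0.58 for both SMAD3 and NFATC2. The JUN reads of Oasl1 came from a region 2192 bp downstream of its start and the others mostly from the partly repeated stretch upstream. Without that stretch the Oasl1 ratios were -1.05 for H3K9lc and 1.34 for SMAD3, each of the opposite sign. Ifitm1 had -0.47 for JUN and 1.89 for SMAD3, the latter on 3 and 9 reads. Oas1a had 1.23 for JUN and -2.48 for NFATC2, on 17 and 22 and on 12 and 1 reads. Its JUN region lay 9686 bp from its start and its NFATC2 regions 4840 and 1470 bp, without overlap.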

How the results depend on the processing

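No paired analysis was possible because a condition is a single library for any antibody, so none could be left out either. SMAD3, NFATC2 and the NC library held few reads a gene. Without scaling, the median of all genes was -0.87 (H3K9lc), -0.90 (JUN), -0.27 (SMAD3), -0.56 (NFATC2) and 4.48 (TGF over NC), while the member median less that of all genes stayed at 0.26, 0.13, 0.78, -0.38 and 0.69. Of the values that answer a comparison, 62 moved under an alternative and 84 did not, and of those for single genes and groups of regions 12 moved and 110 did not.

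Counts of members are given as at least 2-fold lower, then higher. Without scaling they were 5 and 0 for H3K9lc (median -0.60), 13 and 1 for JUN (-0.77) and 2 and 3 for SMAD3 (0.51). For NFATC2 1 was higher (-0.93), and for TGF over NC 5 were higher (5.17). With regions called in both libraries set to equal, the JUN median was 0.044, and for TGF over NC 4 were higher (1.52). With no read filter, counts were 3 and 13 for SMAD3, 7 and 8 for NFATC2 (median 0.56, of opposite sign to the reported one) and 2 and 4 for TGF over NC. At 30 reads or more, 0 were lower for H3K9lc (-0.038), counts were 0 and 1 both for JUN and for SMAD3 (SMAD3 median 0.66), NFATC2 had 0 and 0, and 0 were higher for TGF over NC. Within 3 kb of a start they were 0 and 0 for H3K9lc (-0.19) and 0 and 1 for NFATC2 (-0.58). There 1 was higher for JUN (0.19) and 3 for SMAD3 (0.66), and the TGF over NC median, over 2 genes, was 2.58. From the most-read region alone, 2 were higher for H3K9lc, counts were 1 and 1 for NFATC2 (-0.63), and the TGF over NC median was 0.25. By intervals that left out 0, 3 were higher for H3K9lc, 6 for JUN and 0 for TGF over NC, 2 were lower for SMAD3, and NFATC2 had 2 and 1. Shares of regions within 1 kb of a start, in place of 3 kb, were 36.4% for JUN, 25.5% for SMAD3, 16.1% for NFATC2 and 13.0% for TGF over NC. For JUN at Isg20 the ratio was -1.64 without scaling, -0.37 within 3 kb and -1.07 beyond 3 kb, the last chosen after seeing the data, as was the distal JUN sum without Isg20 (0.0055). Without the Oasl1 upstream region, also chosen after seeing the data, 2 were lower for H3K9lc and its median was -0.28, and the NFATC2 median was -0.054. Causes were not tested.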
